A study of Homo sapiens with 6 samples.

Results

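The cathepsins described here are 10 protease genes of the lysosome: CTSA, CTSB, CTSC, CTSD, CTSF, CTSH, CTSL, CTSO, CTSS and CTSZ. They were chosen by name, as the rows of the deposited table whose Ensembl IDs carry these symbols, and all 10 were found among 35716 genes. Transcripts were counted in MIA PaCa-2, an established cell line from a human pancreatic ductal adenocarcinoma, labelled wild type. Cells with 10 nM triptolide for 24 h (3 libraries) were compared with untreated cells (3 libraries), which per the series' design text grew for 24 h in DMEM with 10% FBS. That text calls the triptolide cells a control, and the groups follow the sample titles and treatment labels. Triptolide is a plant diterpenoid known to bind XPB, a part of TFIIH, and so to slow transcription. The labels do not state whether libraries of a group are separate cultures, and p-values here reflect the spread among the libraries alone, some or all of which may be technical.

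Cathepsins are made as inactive precursors, carried to the lysosome largely by mannose 6-phosphate receptors and activated there at acid pH. Most are cysteine proteases related to papain, while CTSD is an aspartic protease and CTSA a serine carboxypeptidase. They digest the proteins that autophagy and endocytosis bring to the lysosome. In pancreatic tumours, cathepsins B and L are known for promoting invasion, mainly from mouse models, and in the acinar cells of the pancreas cathepsin B can activate trypsinogen.

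With triptolide, CTSC fell and was the only abundant gene of the 10 called by the test, while CTSB, CTSL, CTSA and CTSZ were not called. CTSV, a cathepsin outside the 10, was called higher (edgeR adjusted p = 0.0154). Among the 10, 8 reached the low-count level in libraries of both groups. Of these 8, 1 fell, 0 rose and 7 were not called in edgeR at an adjusted p under 0.05. At an unadjusted p under 0.05, 1 of the 8 was lower and 1 higher, and DESeq2 and limma-voom each called 1 lower and 0 higher. Over all 15202 genes tested, 5.82% fell and 10.0% rose, and 15.9% were called in either direction. Of these 15202, DESeq2 called 1123 lower and 1505 higher, and limma-voom 899 and 1483. The share of all genes at an unadjusted p under 0.05 is not given here. The 8 genes had a median log2 fold change of 0.129, against -0.004 over all genes tested. All triptolide libraries were higher for 3 of the 8 and lower for 1, against 19.8% and 16.9% of all genes tested. The other two, CTSF and CTSS, reached that level, 0.529 CPM, in triptolide libraries alone. Having passed the filter through the group where they are high, they are described by their counts.

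The promoters of CTSC and of CTSA and CTSD are printed because CTSC is the member that fell and the other two carry the palindrome CACGTG, the E-box core of the motif through which TFEB and its relatives bind lysosomal genes. RefSeq windows of GRCh38.p14, from 250 bases before to 50 bases after the gene's start, were held for 7 of the 10 genes, and the build of the count table is not given. Capitals mark CACGTG, and CCAAT or its complement ATTGG, the letters bound by NF-Y.
CTSC promoter, chr11:88337687-88337986, minus strand: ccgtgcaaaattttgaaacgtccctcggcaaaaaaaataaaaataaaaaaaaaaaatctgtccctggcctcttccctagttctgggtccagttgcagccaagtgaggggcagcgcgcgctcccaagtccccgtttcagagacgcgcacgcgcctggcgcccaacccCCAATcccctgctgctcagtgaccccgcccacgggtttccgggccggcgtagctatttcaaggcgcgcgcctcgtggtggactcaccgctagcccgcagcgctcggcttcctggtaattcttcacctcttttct
CTSA promoter, chr20:45891085-45891384, plus strand: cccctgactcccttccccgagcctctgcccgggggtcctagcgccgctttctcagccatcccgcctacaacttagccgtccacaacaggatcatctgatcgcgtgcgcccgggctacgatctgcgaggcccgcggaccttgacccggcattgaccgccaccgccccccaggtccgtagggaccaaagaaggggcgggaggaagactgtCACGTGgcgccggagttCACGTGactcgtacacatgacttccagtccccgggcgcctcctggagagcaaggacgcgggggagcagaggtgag
CTSD promoter, chr11:1763878-1764177, minus strand: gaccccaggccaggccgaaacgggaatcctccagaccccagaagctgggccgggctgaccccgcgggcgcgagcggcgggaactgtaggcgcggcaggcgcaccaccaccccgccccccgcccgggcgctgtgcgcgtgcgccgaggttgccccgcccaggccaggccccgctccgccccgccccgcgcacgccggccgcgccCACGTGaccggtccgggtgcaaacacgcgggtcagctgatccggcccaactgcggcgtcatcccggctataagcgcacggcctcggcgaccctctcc

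CACGTG, which reads the same on both strands, stood in 3 of the 7 windows (CTSA, CTSD and CTSF), against 7.26% of the 35116 promoters in the table. CTSA held it 42 and 25 bases before the start and CTSD 47 bases before it. The CTSC window had no CACGTG and held CCAAT 84 bases before the start. CCAAT or ATTGG stood in 3 of the 7 (CTSC, CTSF and CTSL) and in 34.6% of all promoters. GGGCGG or its complement CCGCCC, the GC box of SP factors, stood in 6 of the 7 and in 45% of all, and TATAAA or TTTATA in 0 of the 7 and in 11.5% of all. These matches describe letters in the windows and do not show binding.

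CTSC (ENSG00000109861) encodes cathepsin C, or dipeptidyl peptidase I, which removes pairs of residues from the start of proteins and activates the serine proteases of immune cell granules. It had 421, 429 and 409 CPM (counts scaled to the library total, with TMM factors) in triptolide replicates 1, 2 and 3, against 666, 669 and 712 CPM in untreated replicates 1, 2 and 3. All triptolide libraries lay below all untreated ones, and both groups were narrow. The means were 420 ± 9.91 CPM with triptolide and 682 ± 26.0 CPM untreated (SD, n = 3 libraries each). The log2 fold change was -0.70 ± 0.15 (SE), a 1.62-fold fall with a 95% interval of -1.02 to -0.38 on the log2 scale, and the edgeR adjusted p was 0.00792. In such bulk libraries, less RNA per cell cannot be told apart from fewer cells that express a gene, and every level is relative to the rest of its library.

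The fall rested on large counts, at least 6686 in each library, and its adjusted p passed without any single library (0.00908 to 0.0459 over the 6 omissions). It did not pass with scaling on ribosomal protein genes (log2 fold change -0.53, adjusted p = 0.165), which moved the median of all genes to 0.171. GC content moved with fold change across the tested genes: 8.21% of genes under 40% GC fell, against 3.45% of genes over 60% GC. CTSC has 38.2% GC in its longest GENCODE 29 transcript and 45.2% in its principal coding one. With a GC offset by the longest transcript the log2 fold change was -0.47 (adjusted p = 0.0567), and by the principal transcript, an alternative chosen after seeing the data, -0.67 (adjusted p = 0.00311).

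**Figure D1:**
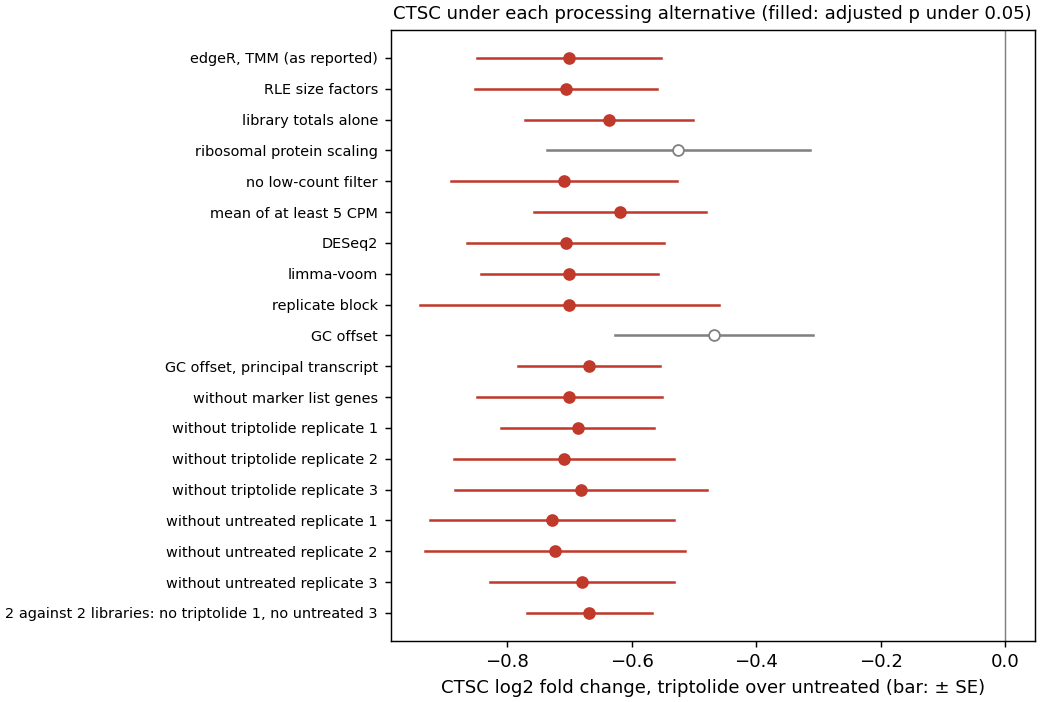
CTSC log2 fold change, triptolide over untreated (x axis), with its SE as a bar, under each processing alternative (y axis), and filled where the adjusted p is under 0.05. All points lie below 0, from -0.73 to -0.47, and those for ribosomal protein scaling and for the GC offset by the longest transcript are open.

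Some genes known as markers of other cell types also differed between the groups. The counts of calls below stand beside 5.82% of all 15202 genes tested that fell and 10.0% that rose. Of 14 tested fibroblast markers, 7 fell and 0 rose. POSTN, among the 7, passed the filter through the untreated libraries alone, and its call is not read as a result. Summed levels were 1194 to 1457 CPM in triptolide libraries and 1336 to 1691 CPM in untreated ones. Most came from COL5A2 (means of 914 CPM with triptolide and 850 CPM untreated) and COL1A2 (329 and 323 CPM), which were not called. Among the 7 that fell, COL1A1 averaged 2.83 CPM with triptolide and 61.1 CPM untreated, FN1 21.7 and 180 CPM, and SPARC 3.05 and 18.3 CPM. COL5A1, THY1 and ACTA2 were the others besides POSTN. FAP, below the low-count filter, had 0 counts with triptolide and 11 untreated. Of 20 tested trophoblast markers, 17 rose and 0 fell. Among the risers, only CSH1, CSH2, PSG4 and PAPPA reached the low-count level in untreated libraries too. The other risers passed the filter through the triptolide libraries alone, and their calls are not read as results. PSG5, PSG9 and HSD17B1 reached the level in both groups and were not called. The sums of the listed genes were 586 to 957 CPM in triptolide libraries and 28.8 to 34.03 CPM in untreated ones, where 9 of the 27 had 0 counts. All 3 tested red cell markers rose, with sums of 7.88 to 18.7 CPM with triptolide and 0.716 to 2.02 CPM untreated. HBA1 and HBA2 passed the filter through the triptolide libraries alone, and their calls are not read as results either. Of the 6 tested ductal epithelial markers, KRT18 fell and 5 were not called. KRT8 averaged 1587 ± 257 CPM with triptolide and 1894 ± 341 CPM untreated (SD, n = 3 each), while EPCAM had 3 and 4 counts in all and CDH1 16 and 5 counts. The sample titles name MIA PaCa-2 cells alone. Which cells expressed these markers was not tested, nor was the part of any other cells in the cathepsin values.

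CTSB (ENSG00000164733), an endopeptidase that can also trim pairs of residues from the end of a protein, had 472, 424 and 405 CPM with triptolide, against 300.3, 326 and 364 CPM untreated. The groups did not overlap, as in 36.7% of all genes tested. Its log2 fold change of 0.39 ± 0.16 (SE; 95% interval 0.05 to 0.73) did not pass (edgeR adjusted p = 0.111), although it did with library totals alone (adjusted p = 0.0463). CTSB also passed with triptolide replicate 1 and untreated replicate 3 both left out, an alternative added after seeing the data (adjusted p = 0.0239).

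CTSL (ENSG00000135047), a broad endopeptidase, had 316, 260 and 260.5 CPM with triptolide, against 218, 230.2 and 254 CPM untreated. These groups did not overlap either, by a narrow margin, and the gene was not called (log2 fold change 0.25 ± 0.16 SE, 95% interval -0.09 to 0.60, edgeR adjusted p = 0.309). CTSZ (ENSG00000101160), a carboxypeptidase also called cathepsin X, had 341, 256 and 257 CPM with triptolide, against 254, 275 and 322 CPM untreated. Its groups overlapped, and its log2 fold change was 0.01 ± 0.17 (SE) with a 95% interval of -0.38 to 0.39.

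CTSA (ENSG00000064601) encodes the protective protein that holds beta-galactosidase (GLB1) and neuraminidase (NEU1) in a complex. It had 352, 262 and 245 CPM with triptolide, against 231, 209 and 250 CPM untreated, with triptolide replicates 1 and 2 above the untreated range and replicate 3 within it (log2 fold change 0.32 ± 0.18 SE, edgeR adjusted p = 0.252). Of its partners, GLB1 averaged 67.4 ± 5.34 CPM with triptolide and 48.2 ± 1.53 CPM untreated (adjusted p = 0.0522), and NEU1 24.4 ± 2.41 and 19.1 ± 2.82 CPM (adjusted p = 0.2; SD, n = 3 each). In GENCODE 29, exons of CTSA overlap those of PLTP and NEURL2 on the other strand, and the strand setting of the counting is not given.

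CTSD (ENSG00000117984), the main aspartic protease of the lysosome, had 64.0, 74.8 and 52.6 CPM with triptolide, against 61.1, 62.9 and 93.1 CPM untreated. Untreated replicate 3 lay above the other libraries, and the gene was not called (log2 fold change -0.18 ± 0.20 SE, edgeR adjusted p = 0.585). An overlapping GENCODE 29 gene on the same strand, ENSG00000250644, covers 41.7% of the CTSD exon bases and held 27 counts in the triptolide and 16 in the untreated libraries. Whether reads in both genes were discarded is not given, so that the CTSD level may be understated. CTSH (ENSG00000103811), an aminopeptidase, had 29.5, 31.1 and 24.1 CPM with triptolide, against 22.8, 26.9 and 39.1 CPM untreated (adjusted p = 0.858).

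The last 3 genes stood near the limit of detection. CTSO (ENSG00000256043), a little-studied papain-type protease, had 14, 28 and 26 counts in triptolide replicates 1, 2 and 3, against 13, 11 and 12 counts untreated (1.05 ± 0.17 and 0.67 ± 0.06 CPM, SD, n = 3 each; adjusted p = 0.174). CTSF (ENSG00000174080), which like CTSS can process the invariant chain of MHC class II in antigen-presenting cells, had 12, 12 and 14 counts with triptolide, against 2, 8 and 6 untreated.

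CTSS (ENSG00000163131), a protease of antigen-presenting cells that cleaves the invariant chain, had 15, 12 and 20 counts with triptolide, against 3, 4 and 7 counts untreated. The triptolide libraries were all higher, at 0.76 ± 0.21 CPM against 0.26 ± 0.11 CPM untreated (SD, n = 3 each). Its call in edgeR is not read as a result, since it reached the low-count level through the triptolide libraries alone. Of 17 listed macrophage markers, 6 were tested. Of these, 3 were called higher and 0 lower, beside 10.0% and 5.82% of all genes tested. CD74, the invariant chain itself, rose (2.15 ± 0.36 CPM with triptolide and 1.04 ± 0.11 CPM untreated, SD, n = 3 each). CSF1R and C1QA were also called higher. Like CTSS, they reached the low-count level through the triptolide libraries alone, and their calls are not read as results. CD14, ITGAM and LAPTM5 were not called. The summed level of the 17 markers was 10.2 to 15.6 CPM in triptolide libraries and 4.88 to 6.04 CPM in untreated ones. CD68, CD163 and C1QC had 6, 5 and 32 counts with triptolide and 0 untreated. LYZ had 0 counts with triptolide and 3 untreated, and PTPRC 9 and 9. Whether macrophages were present, or had a part in the CTSS value, was not tested.

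**Figure D2:**
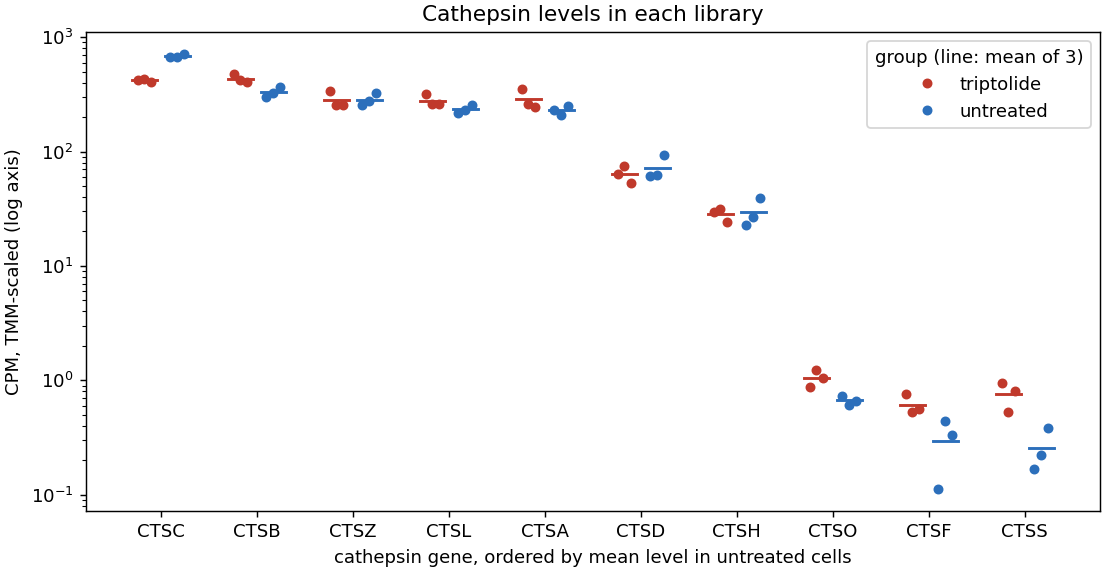
Level of each of the 10 cathepsins in CPM on a log axis (y axis), by gene (x axis), with a point per library, triptolide left and untreated right, and a line at the mean of 3 libraries. CTSC lies at 409 to 429 CPM with triptolide and 666 to 712 CPM untreated, and CTSO, CTSF and CTSS lie near 1 CPM or below in both groups.

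**Figure D3:**
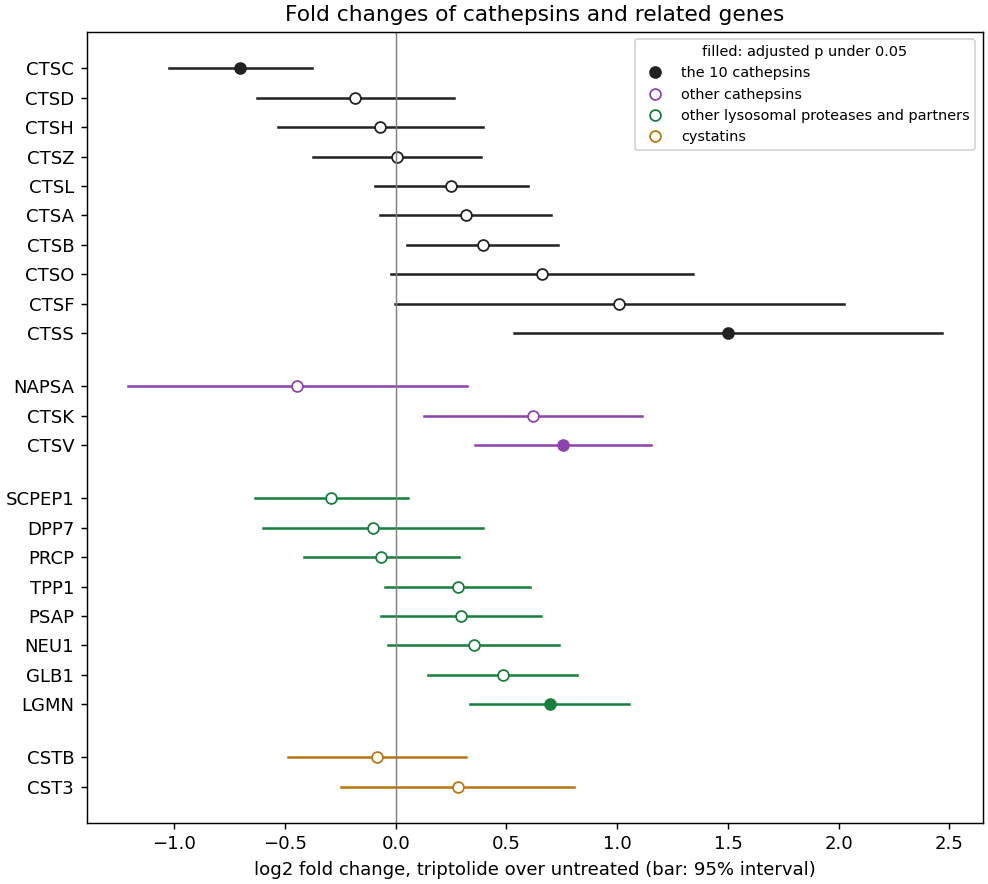
Log2 fold change, triptolide over untreated (x axis), with its 95% interval, for the 10 cathepsins and related genes tested (y axis), filled where the edgeR adjusted p is under 0.05. CTSC is the only filled point below 0, and CTSV, LGMN and CTSS are the filled points above 0, of which CTSS passed the low-count filter through the triptolide libraries alone.

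The summed level of the 10 genes overlapped between the groups, while the shares of CTSC, CTSB, CTSL and CTSA in it did not. Shares are parts of a whole, so a smaller CTSC share by itself makes the others larger. The sum was 1999, 1740 and 1655 CPM in triptolide replicates 1, 2 and 3, against 1754, 1800 and 2036 CPM in untreated replicates 1, 2 and 3. CTSC made up 23.5 ± 2.10% of it with triptolide and 36.7 ± 1.54% untreated, and CTSB 24.1 ± 0.46% with triptolide and 17.7 ± 0.52% untreated (SD, n = 3 each). CTSL made up 15.5 ± 0.48% and 12.6 ± 0.19%, and CTSA 15.8 ± 1.56% and 12.4 ± 0.79%, with triptolide and untreated. CTSB, CTSL and CTSA were not called. Without CTSC the other 9 summed to 1378 ± 176 CPM with triptolide and 1181 ± 125 CPM untreated. Within the untreated group, replicate 3 was the highest library for all 7 abundant genes, and within the triptolide group, replicate 1 was the highest for CTSA, CTSB, CTSL and CTSZ.

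**Figure D4:**
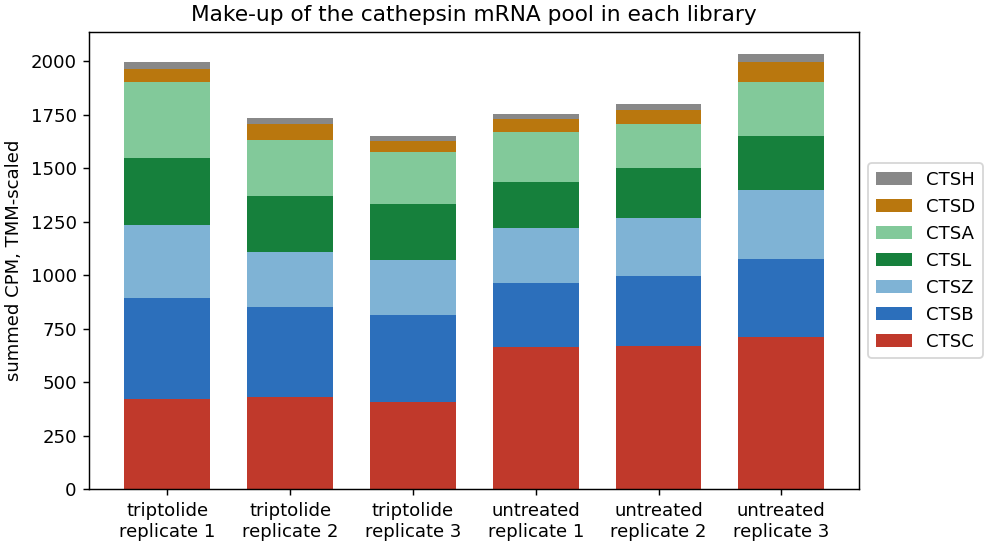
Summed CPM of the 7 abundant cathepsins (y axis) in each of the 6 libraries (x axis), stacked by gene. The CTSC block is smaller in the 3 triptolide libraries (409 to 429 CPM) than in the 3 untreated ones (666 to 712 CPM), while the CTSB block is larger.

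Ratios of counts within a library do not depend on how libraries are scaled, but differences in GC content can still enter them. CTSC has 38.2% GC in its longest transcript, and the 6 genes it is compared with have 52.5% (CTSL) to 64% (CTSD). CTSC had 0.892, 1.01 and 1.01 counts for each CTSB count in triptolide replicates 1, 2 and 3, against 2.22, 2.05 and 1.96 in untreated replicates 1, 2 and 3. The ratio of CTSC to CTSL was 1.33 to 1.65 with triptolide and 2.80 to 3.05 untreated, and that to CTSA was 1.20 to 1.67 and 2.85 to 3.20. The ratio to CTSZ was 1.23 to 1.67 with triptolide and 2.21 to 2.62 untreated, again without overlap. Only the ratio to CTSD overlapped among the 6 ratios computed, at 5.73 to 7.79 with triptolide and 7.65 to 10.9 untreated. CTSC was picked for its fall, so these ratios were not tested.

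**Figure D5:**
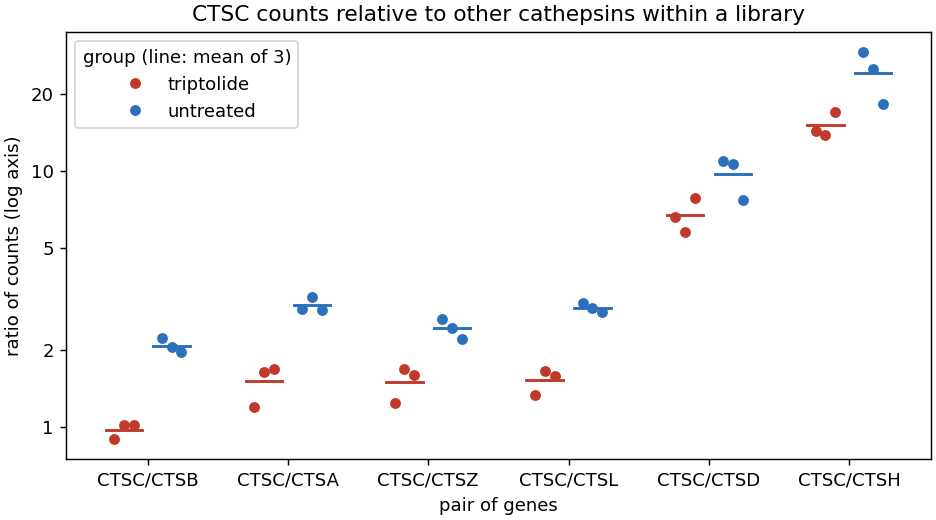
Ratio of CTSC counts to the counts of each of 6 other cathepsins within a library (y axis, log), by pair of genes (x axis), with triptolide left, untreated right and a line at the mean of 3 libraries. The ratio to CTSB lies between 0.892 and 1.01 in the triptolide libraries and between 1.96 and 2.22 in the untreated ones, and the ratio to CTSD overlaps.

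Compared per kilobase of the principal coding transcript, the order of levels was alike in both groups for most genes. With triptolide, CTSC stood at 219 ± 5.16, CTSZ at 190 ± 32.7, CTSA at 133 ± 26.9, CTSL at 128 ± 14.8 and CTSB at 112 ± 8.95 CPM per kilobase (SD, n = 3). In untreated cells CTSC stood at 355 ± 13.5, CTSZ at 190 ± 23.6, CTSL at 108 ± 8.41, CTSA at 107 ± 9.46 and CTSB at 85.2 ± 8.25 CPM per kilobase. CTSC and CTSZ overlapped with triptolide and were apart in untreated cells, and CTSA and CTSL overlapped in both. CTSD followed at 30.0 ± 5.24 and 34.1 ± 8.48 CPM per kilobase and CTSH at 12.9 ± 1.68 and 13.5 ± 3.87, and CTSO, CTSF and CTSS were below 1 in both groups. The place of CTSC depends on the transcript: over the 6125 bases of its longest one in place of 1921, it stood at 68.5 ± 1.62 with triptolide, below CTSZ, CTSL, CTSB and CTSA, and at 111 ± 4.25 CPM per kilobase untreated.

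Other cathepsins were scarce apart from CTSV. CTSV, a close relative of CTSL, had 34.6, 47.8 and 39.0 CPM with triptolide, against 21.8, 22.8 and 27.3 CPM untreated, and rose 1.69-fold (log2 fold change 0.76 ± 0.18 SE, edgeR adjusted p = 0.0154). CTSK, the collagen-degrading cathepsin of osteoclasts, averaged 10.2 ± 2.13 CPM with triptolide and 6.62 ± 1.34 CPM untreated (SD, n = 3 each; adjusted p = 0.0821). NAPSA was not called, CTSW and CTSE had 28 and 15 counts in all and were not tested, and CTSG was not analysed here.

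Among 8 tested lysosomal proteases and partners outside the cathepsins, 1 rose and 0 fell, beside 10.0% and 5.82% of all genes tested. LGMN, or legumain, an asparaginyl endopeptidase that processes cathepsin precursors, had 132, 106 and 103 CPM with triptolide, against 63.7, 71.8 and 75.0 CPM untreated. It rose 1.62-fold (log2 fold change 0.70 ± 0.17 SE, edgeR adjusted p = 0.0143). Without untreated replicate 1 or 2, LGMN (adjusted p = 0.0796 and 0.0702) and CTSV (0.0754 and 0.0837) did not pass. At an unadjusted p under 0.05, 2 of the 8 were higher and 0 lower, DESeq2 called 2 higher and limma-voom 1, and neither called any lower. The share of all genes at that unadjusted p is not given here. The rises of CTSV and LGMN stood beside those of the trophoblast markers CSH1, CSH2, PSG4 and PAPPA. Whether trophoblast cells were present, or had a part in these rises, was not tested.

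The inhibitors, carriers and regulators of cathepsins gave no call in the main edgeR fit, where 15.9% of all genes tested were called in either direction. Of the cystatins, CSTB, the cytosolic inhibitor, averaged 206 ± 27.7 CPM with triptolide and 218 ± 45.05 CPM untreated, and CST3, the secreted one, 185 ± 64.9 and 152 ± 36.3 CPM (adjusted p = 0.8 and 0.469; SD, n = 3 each), while the other 8 measured inhibitors had at most 15 counts in all 6 libraries. These 2 had 0 calls also at an unadjusted p under 0.05, in DESeq2 and in limma-voom. Of 17 tested genes for delivery to the lysosome, 0 rose and 0 fell, and 0 were called by DESeq2 or limma-voom. At an unadjusted p under 0.05, 2 were higher and 0 lower, with no share of all genes given for that threshold. IGF2R, the large mannose 6-phosphate receptor, averaged 369 ± 71.0 CPM with triptolide and 240.2 ± 72.5 CPM untreated (adjusted p = 0.0915), and AP1B1, of the AP-1 clathrin adaptor, 249 ± 56.6 and 189 ± 3.83 CPM (adjusted p = 0.151). IGF2R passed with no low-count filter (adjusted p = 0.0148), on omitting triptolide replicate 2 (0.0415) and with a replicate block (0.0449).

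Of 9 tested regulators of lysosomal genes, 0 rose and 0 fell, beside 10.0% and 5.82% of all genes tested. At an unadjusted p under 0.05, for which the share of all genes is not given, 2 were lower and 0 higher. DESeq2 and limma-voom called 0. With the GC offset by the longest transcript 2 of these regulators fell, and 3 with that by the principal transcript, where 1765 and 1899 of all genes fell. With triptolide replicate 1 and untreated replicate 3 both left out 2 fell, beside 1841 of all genes. Without triptolide replicate 2, and without untreated replicate 3, 1 fell. TFE3, a relative of TFEB, averaged 142 ± 20.3 CPM with triptolide and 170 ± 2.89 CPM untreated (edgeR adjusted p = 0.279, and 0.0186 with the GC offset). PPP3CB, a calcineurin subunit of the phosphatase that acts on TFEB, averaged 31.1 ± 7.27 and 45.3 ± 2.47 CPM (adjusted p = 0.0745, and 0.0333 on omitting triptolide replicate 2). Of the granule proteases that cathepsin C activates, 5 had rows and 2 were tested, with 0 calls in edgeR, DESeq2, limma-voom or at an unadjusted p under 0.05. AZU1 averaged 3.98 ± 1.06 and 3.44 ± 0.73 CPM and PRTN3 0.65 ± 0.16 and 0.67 ± 0.11 CPM with triptolide and untreated, and ELANE, GZMA and CMA1 had at most 16 counts in all.

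Across the 6 libraries, the genes whose log2 CPM followed CTSC most closely among the 3886 genes averaging 50 CPM or more were KNSTRN, NONO and HNRNPDL (Pearson's r = 0.995, 0.995 and 0.994). KNSTRN, a spindle protein, averaged 57.3 ± 3.09 CPM with triptolide and 106 ± 6.90 CPM untreated. NONO, a paraspeckle protein, averaged 886 ± 13.9 and 1133 ± 3.69 CPM, and HNRNPDL, an RNA-binding protein, 91.7 ± 8.20 and 308 ± 26.4 CPM (SD, n = 3 each). The genes nearest to CTSS, at its few counts, were NARF, HLA-E and MICALL2 (r = 0.986, 0.968 and 0.961). These values describe 6 libraries in 2 groups, so that any gene that differs between the groups scores high.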

How the data were processed

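RNA was counted in 6 libraries of MIA PaCa-2 cells, made from oligo(dT)-purified mRNA per the labels' protocols. The authors deposited whole-number counts per Ensembl gene, whose totals differ between libraries. HISAT2 and featureCounts were used, versions not listed, per the submitters' processing notes. For genome build, annotation, strand setting and reads shared by genes, the choices were not given in the sources used here. Of 35716 IDs, 35639 were matched to symbols by ID, and lengths and GC content came from GENCODE 29, with GC for 99.2% of tested genes.

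Library totals ranged from 16302961 to 23262713 counts, with 31278 to 41442 on the 10 cathepsins. Genes kept by edgeR's filterByExpr (15202) entered edgeR 4.0.16 with TMM factors (glmQLFit, glmQLFTest; R 4.3.3), triptolide over untreated, with Benjamini-Hochberg adjustment over all of them. SE and 95% intervals come from the fold change and its F statistic. The members, gene lists, tests and rule for named genes were chosen with earlier results of these data known. The rule took the 10 members, called list genes (or the 2 most abundant of a list with none) and the 3 genes most correlated with each called member, using log2 CPM (prior count 2). GLB1, NEU1, CTSK, NAPSA, CTSW, CTSE and the marker genes were named outside that rule after their values were seen. Alternatives used DESeq2 1.42.0 and limma 3.58.1, other scalings and filters, GC offsets, a replicate block and omitted libraries. On simulated data the fit recovered 18% of 50 genes changed 1.5-fold, 60% of 50 changed 2-fold and 98% of 50 changed 3-fold. It recovered 100% of 50 changed 4-fold and made 15 false calls. Most 1.5-fold changes in the simulation were thus missed, and a gene not called is not shown to be unchanged. Figures used matplotlib 3.10.9.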

Additional observations from a re-analysis of the deposited data

How the results depend on the processing

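CTSC kept its direction under all 18 alternatives (log2 fold change -0.73 to -0.47) and its call under 16. The fall was not called with ribosomal protein scaling (-0.53, 0 members fallen) or the GC offset by the longest transcript (-0.47, 0 members fallen). Ribosomal protein scaling moved the median of all genes to 0.171. Among the 8 members past the low-count level in both groups 0 rose. The count over all 10, 1 with all libraries, is that of CTSS, which passed the filter through the triptolide libraries alone, and supports nothing. It was 2 with library totals alone and with triptolide replicate 1 and untreated replicate 3 both left out, 0 at 5 CPM or more, where CTSS, CTSF and CTSO were not tested, 0 in DESeq2, and 0 to 1 without single libraries, where 1 member fell each time. Over all genes, 1527 rose and 884 fell. Among genes averaging 5 CPM or more 583 rose and 337 fell, with fewer genes tested, and 128 fell with ribosomal protein scaling, 1765 and 1899 with the GC offsets and 1841 with both libraries left out. Without single libraries 953 to 1580 rose and 407 to 1034 fell, the lowest counts both without untreated replicate 2. Without untreated replicate 1 529 fell, and without triptolide replicate 3 457. Rises made up 63.3% of calls, 73.7% with library totals, 90.3% with ribosomal protein scaling and 53.1% with the GC offset.

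Of the members not called, CTSD, CTSH and CTSZ changed sign, as did 4 genes of the other lists. CTSZ (0.01) was at -0.0001 with RLE factors, -0.0051 with no filter, -0.0002 in DESeq2, -0.0005 in limma-voom, -0.001 with the replicate block, -0.14 with both GC offsets, -0.039 with both libraries left out and -0.13 to 0.096 without single libraries. CTSD (-0.18) was at 0.019 with ribosomal protein scaling, 0.039 with both libraries left out and -0.30 to 0.029 without single ones. CTSH (-0.07) was at 0.0022 with library totals, 0.14 with ribosomal protein scaling, 0.016 at 5 CPM or more, 0.15 with both libraries left out and -0.24 to 0.17 without single ones. CSTB (-0.08) was at 0.11 with ribosomal protein scaling, 0 at 5 CPM or more, 0.036 with both libraries left out and -0.19 to 0.088 without single ones. PRTN3 (-0.04) was at 0.026 with library totals, 0.15 with ribosomal protein scaling, 0.038 with both libraries left out and -0.21 to 0.16 without single ones. Without single libraries CST3 ran from -0.026 to 0.48 and AZU1 from -0.003 to 0.35. The causes were not tested. The GC offset by the principal transcript, the omission of both libraries and that of marker genes were chosen after seeing the data.

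The labels do not say whether the replicate numbers pair the libraries, and 3 libraries per group are too few to decide it. Deviations of same-numbered libraries correlated at 0.029, -0.041 and -0.439, and those of differently numbered ones at -0.277 to 0.312. With a replicate block 1523 genes rose and 856 fell, and CTSC kept its call (log2 fold change -0.70, adjusted p = 0.0277). CTSF, CTSO and CTSS had 2 to 28 counts per library, and the 95% interval of CTSO ran from -0.02 to 1.34 on the log2 scale.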
